A study of Mus musculus with 9 samples.

Results

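The Kruppel-like factors described here are Klf2, Klf4, Klf5, Klf6, Klf9, Klf10, Klf11, Klf13 and Klf15, 9 of the 24964 gene symbols counted in bulk RNA sequencing of mouse hearts, chosen by symbol. All 9 had enough reads to be tested, Klf5 only through its infarct libraries. The hearts came from 9 male C57BL/6JR mice, 8 weeks old, with 3 mice in each of 3 groups and no transgene or drug named. In the MI 7 d and MI 28 d groups the left anterior descending coronary artery had been tied, which causes a myocardial infarction (MI), and the hearts were taken 7 d or 28 d later. The sham group had the same chest operation under isoflurane without tying the artery. The labels give the tissue as heart, without saying which region was taken, at what time of day, or how long after surgery the sham hearts were collected.

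Kruppel-like factors (KLFs) are transcription factors that bind GC-rich and CACCC-containing DNA through zinc fingers at their C-terminal end, and they activate or repress depending on the cofactors they recruit. KLF2 and KLF4 are induced in endothelium by laminar flow and keep vessels quiescent. KLF9, KLF13 and KLF15 respond to glucocorticoids, and KLF15 also links the clock to the metabolism and repolarisation of cardiomyocytes. KLF5 and KLF6 are known from injured and growing tissue, and KLF10 and KLF11 were first described as early genes induced by TGF-beta.

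The genes Klf2, Klf4, Klf9 and Klf15 fell together at 7 d and were higher again at 28 d, so the DNA before their start sites is shown. Each line holds the 250 bases before the start of the gene in RefSeq (GRCm38.p6), 5′ to 3′ on the gene's own strand. Capitals mark every match to the CACCC box (CACCC, or GGGTG on the other strand), the GC box (GGGCGG or CCGCCC) and the E-box (CACGTG, the same on both strands). The windows are chr8:72318812-72319061 for Klf2, chr4:55532476-55532725 on the minus strand for Klf4, chr19:23140976-23141225 for Klf9 and chr6:90462326-90462575 for Klf15.
Klf2: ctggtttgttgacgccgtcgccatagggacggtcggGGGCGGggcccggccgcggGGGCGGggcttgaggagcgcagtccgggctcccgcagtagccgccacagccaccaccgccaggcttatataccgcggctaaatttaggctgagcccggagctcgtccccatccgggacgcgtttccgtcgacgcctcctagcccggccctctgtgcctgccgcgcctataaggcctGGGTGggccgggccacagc
Klf4: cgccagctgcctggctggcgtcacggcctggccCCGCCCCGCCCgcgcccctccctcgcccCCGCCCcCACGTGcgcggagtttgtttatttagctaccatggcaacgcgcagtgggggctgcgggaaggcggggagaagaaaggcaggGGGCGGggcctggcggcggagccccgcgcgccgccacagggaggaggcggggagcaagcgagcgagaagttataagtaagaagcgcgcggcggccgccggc
Klf9: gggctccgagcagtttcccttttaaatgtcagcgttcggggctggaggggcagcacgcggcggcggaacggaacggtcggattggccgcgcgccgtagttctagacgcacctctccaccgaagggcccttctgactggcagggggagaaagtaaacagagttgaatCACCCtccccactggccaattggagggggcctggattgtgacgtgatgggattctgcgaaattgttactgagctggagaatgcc
Klf15: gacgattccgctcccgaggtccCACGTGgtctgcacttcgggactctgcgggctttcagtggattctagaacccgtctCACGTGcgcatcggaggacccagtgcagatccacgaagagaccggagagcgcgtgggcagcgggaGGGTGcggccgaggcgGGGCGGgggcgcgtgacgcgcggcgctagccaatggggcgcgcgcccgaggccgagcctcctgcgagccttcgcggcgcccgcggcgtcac

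Klf15 held 2 E-boxes, the core sequence bound by the CLOCK and BMAL1 pair, beginning 228 and 172 bases before the start, and Klf4 held 1, beginning 182 bases before it. No E-box was present in the windows of Klf2 and Klf9. Among all 32851 promoter windows of this length, 6.02% held an E-box and 0.429% held 2 or more. The GC box, the shared binding sequence of KLF and Sp proteins, occurred 4 times in Klf4, 2 times in Klf2, once in Klf15 and not in Klf9, beside 32.7% of all windows with at least 1. A CACCC box was present in Klf2, Klf9 and Klf15 and not in Klf4, beside 52% of all windows. Of the 7 KLF genes with a promoter entry, Klf6 and Klf11, which did not fall, also held 1 E-box each. A match describes the letters of the window and not binding in these hearts.

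The sham libraries held 12351525 to 13629120 counts, the MI 7 d libraries 18355720 to 19238101 and the MI 28 d libraries 15300344 to 15770389. Levels are given as CPM, the counts scaled to a common library total after TMM scaling, with SD over n = 3 libraries. Cardiomyocyte markers were high in every library but lower after infarction, with a summed level over 8 genes of 85200 to 88200 CPM in sham, 11200 to 15000 in MI 7 d and 27800 to 49600 in MI 28 d. Summed fibroblast markers were 1910 to 1950, 28100 to 36300 and 5120 to 10300 CPM in the same order, and macrophage markers 477 to 532, 3780 to 4760 and 804 to 1300. MI 7 d replicate 3, MI 28 d replicate 1 and MI 28 d replicate 3 held 122 to 217 CPM of the adipocyte gene Adipoq, against at most 3.12 in the other 6 libraries. In bulk RNA, fewer cells of a type and less RNA per cell cannot be told apart. Scaling by library size alone moved the median log2 fold change of all genes by 0.33 at 7 d and 0.25 at 28 d against sham, and moved the share of called genes that were higher from 52.5% to 67.4% and from 53.5% to 74%.

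At 7 d, 4 of the 9 KLF genes rose against sham (Klf5, Klf6, Klf10, Klf13), 4 fell (Klf2, Klf4, Klf9, Klf15) and Klf11 did not pass. Changes were so widespread in these hearts that 74.4% of all tested genes were called in this comparison, 39% higher and 35.4% lower. At 28 d against sham, Klf5, Klf6 and Klf13 rose, none fell and 6 did not pass, while 55.1% of all genes were called, 29.5% higher and 25.6% lower. Klf5 is among the genes that rose at both times, but it passed the filter on low counts only through its infarct libraries. With sham and MI 28 d compared alone it was not tested. From 7 d to 28 d, Klf2, Klf4, Klf9 and Klf15 rose, none fell and 5 did not pass, while 55.2% of all genes were called, 29.1% higher and 26.1% lower. The members' median log2 fold changes were 0.21, 0.38 and 0.24 in these comparisons, beside 0.06, 0.05 and 0.03 over all tested genes. The 2 comparisons with sham share the same sham libraries. At 7 d, 4 members lay above sham without overlap and 4 below, beside 42.6% and 38.2% of all tested genes. The 28 d libraries lay above sham without overlap for 4 members and below for 1, beside 34.7% and 31.7%. Separation of the libraries was thus common in these hearts. "Rose" and "fell" mean an adjusted p below 0.05 in edgeR's quasi-likelihood test over 14347 genes.

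**Figure D1:**
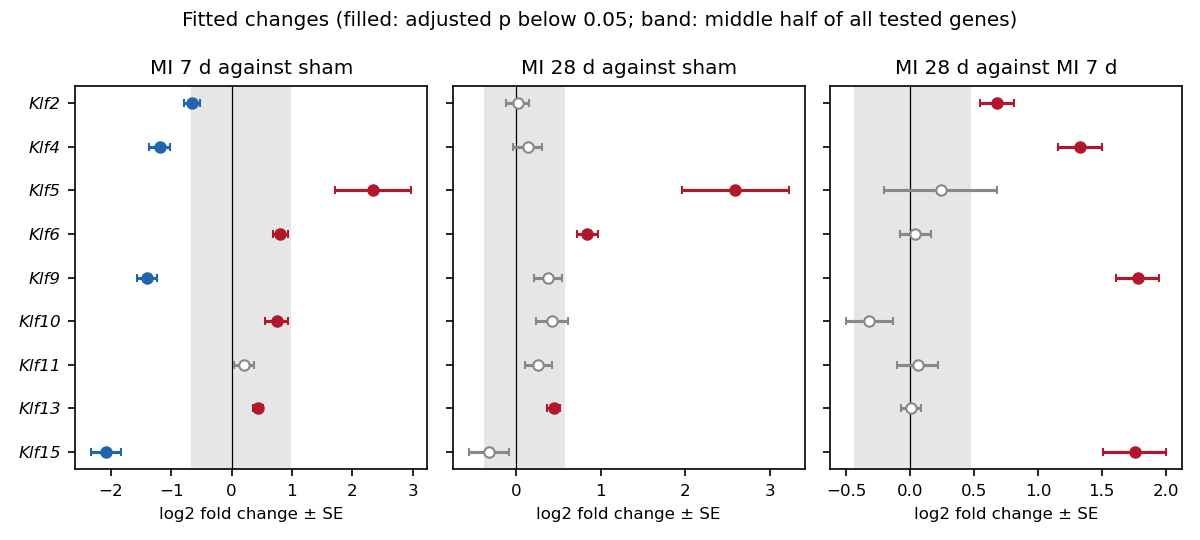
Fitted log2 fold change ± SE of each Kruppel-like factor (x axis) in the 3 comparisons, with 3 libraries per group. Filled points passed an adjusted p of 0.05 in edgeR, red when higher and blue when lower, and the grey band spans the middle 50% of all tested genes; Klf2, Klf4, Klf9 and Klf15 lie below 0 in the left panel and above 0 in the right one.

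Klf2, at chr8:72319033-72321656 (GRCm38, protein coding), encodes the flow-induced factor that maintains endothelial nitric oxide production and restrains inflammation. Its level was 104, 94.5 and 96.8 CPM in the sham libraries, 60.5, 63.9 and 62.9 at 7 d, and 81.2, 94.1 and 125 at 28 d. The 7 d libraries lay close together and below every other library, whereas sham and 28 d overlapped. Klf2 fell 1.58-fold at 7 d (log2 fold change -0.66 ± 0.14 SE, edgeR adjusted p = 0.00154) and rose 1.6-fold from 7 d to 28 d (0.68 ± 0.14, edgeR adjusted p = 0.00216). At 28 d against sham the difference was 0.02 ± 0.14 (edgeR adjusted p = 0.9). The 7 d value was -0.32 and did not pass with library-size scaling alone (edgeR adjusted p = 0.0957).

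Klf4, at chr4:55527143-55532466 on the minus strand, is shared by endothelium, smooth muscle and monocytes, and represses contractile genes when smooth muscle cells switch phenotype. It stood at 71.5, 80.2 and 65.7 CPM in sham, 27.2, 30.6 and 37.4 at 7 d, and 68.6, 69.2 and 101 at 28 d. Here too every 7 d library was below every other library, and MI 28 d replicate 3 was highest. The fall at 7 d was 2.28-fold (-1.19 ± 0.17, edgeR adjusted p = 0.000148) and the rise from 7 d to 28 d was 2.51-fold (1.33 ± 0.17, edgeR adjusted p = 0.000173). The 28 d value did not pass against sham (0.14 ± 0.17, edgeR adjusted p = 0.506).

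Endothelial markers moved in the same hearts. Their summed level over 8 genes was 2040 to 2140 CPM in sham, 1010 to 1170 at 7 d, then 689 to 1340 at 28 d. Of the 8, 5 fell at 7 d and 6 at 28 d, with median log2 fold changes of -0.51 and -0.69, beside -0.66 and 0.02 for Klf2. Per 1000 CPM of these markers, Klf2 was 47.3 ± 1.27 in sham, 57.7 ± 4.95 at 7 d and 107 ± 63.9 at 28 d (SD, n = 3). These ratios did not overlap between any pair of groups, with an exact two-sided permutation p of 0.1 each, the smallest that 3 against 3 allows. The 7 d ratio rested on 1 marker: Kdr, the VEGF receptor 2 gene, was 621, 607 and 627 CPM in sham and 98.7, 90.5 and 99.3 at 7 d. With Kdr left out of the sum, Klf2 was 67.3 ± 1.42 in sham and 63.3 ± 5.54 at 7 d, which overlapped. Between 7 d and 28 d the ratios overlapped with Cdh5 left out. Klf4 per 1000 CPM of the same markers was 34.8 ± 3.9 in sham and 29.2 ± 3.55 at 7 d, which overlapped (exact permutation p = 0.2) but not with Kdr left out (49.5 ± 5.48 and 32 ± 3.79) or with Cdh5 left out, and 86.2 ± 53 at 28 d, where replicate 3 stood at 147 and the others at 59.8 and 51.6. The part of endothelial content in the changes of Klf2 and Klf4 was not tested further.

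**Figure D2:**
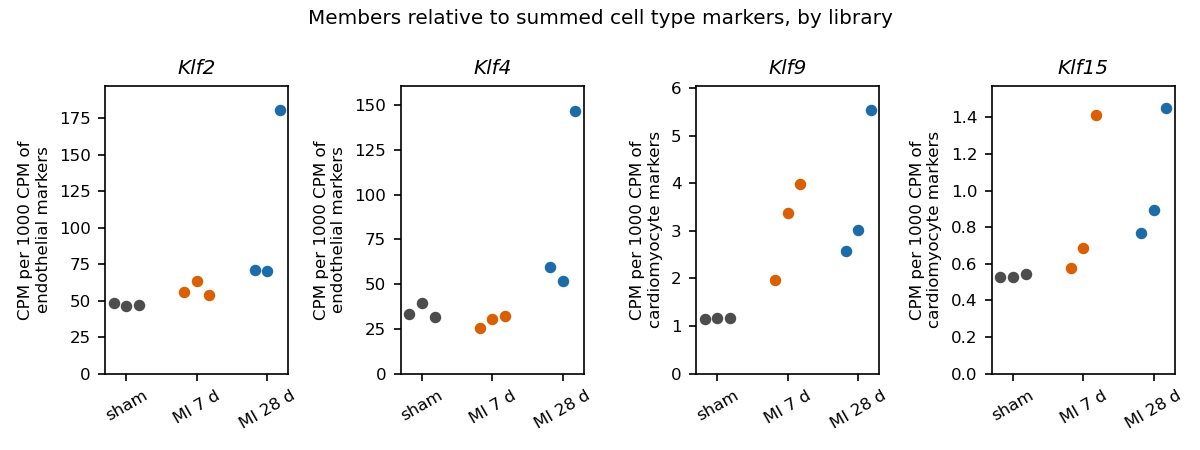
Level of Klf2 and Klf4 per 1000 CPM of summed endothelial markers and of Klf9 and Klf15 per 1000 CPM of summed cardiomyocyte markers (y axes), 1 point per library. MI 28 d replicate 3 is the highest point in all 4 panels, at 181 for Klf2, 147 for Klf4, 5.54 for Klf9 and 1.45 for Klf15. It also had the lowest marker sums of its group, 689 CPM for endothelial and 27800 CPM for cardiomyocyte markers.

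Genes along the flow-sensing route to Klf2 and Klf4 did not share 1 direction. At 7 d 2 of 7 rose and 2 fell, and at 28 d 1 rose and 2 fell. Mapk7, which encodes the kinase ERK5, rose 3.04-fold at 7 d (log2 1.60) and 1.45-fold at 28 d (0.54). Piezo1, a mechanosensitive channel, rose at 7 d (0.95) and was 0.13 at 28 d, which did not pass. Mef2c, a transcription factor gene downstream of ERK5, did not pass at either time (-0.35 and -0.17). These counts became 3 higher and 2 lower at 7 d, and 2 higher and none lower at 28 d, with library-size scaling alone.

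Of 3 endothelial genes known to be induced by KLF2 or KLF4, 2 fell at 7 d and 1 at 28 d. Nos3, the endothelial nitric oxide synthase, was 60.9, 64.7 and 63.3 CPM in sham, 42.5, 36.8 and 44.8 at 7 d and 42.3, 49.3 and 27.5 at 28 d. Every infarct library was below every sham library for Nos3, at a log2 fold change of -0.61 at 7 d and -0.67 at 28 d, and it was -0.06 between the infarct groups, which did not pass. S1pr1, a receptor for sphingosine-1-phosphate, fell at 7 d (-0.42) and rose from 7 d to 28 d (0.43). Thbd, thrombomodulin, did not pass at 7 d (-0.54) or 28 d (0.10), and MI 28 d replicate 3 held 173 CPM against 84.4 and 76.6 in its group. None of the 3 fell at 7 d with library-size scaling alone, and Nos3 was -0.27 there (edgeR adjusted p = 0.157).

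Among 4 inflammatory endothelial genes that KLF2 or KLF4 are known to hold down, 3 rose at 7 d and 2 at 28 d. Vcam1, a leukocyte adhesion molecule, rose 4.47-fold at 7 d and 3.23-fold at 28 d. Ccl2, a monocyte chemokine, rose 1.99-fold at 7 d and did not pass at 28 d (log2 0.15). Sele, E-selectin, did not pass at either time (0.15 and -0.13). Vcam1 and Ccl2 are also made by cells outside the endothelium, and the fibroblast and macrophage markers above were higher in the same libraries. The part of such cells in these rises was not tested.

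Klf9, at chr19:23141226-23168134, encodes a small repressor induced by glucocorticoids and thyroid hormone. Its sham libraries were nearly identical at 99.5, 99.3 and 103 CPM, against 29.4, 37.9 and 46.9 at 7 d and 127, 110 and 154 at 28 d. The 3 groups did not overlap, with 28 d highest and 7 d lowest. Klf9 fell 2.64-fold at 7 d (-1.40 ± 0.17, edgeR adjusted p = 3.9e-05) and rose 3.43-fold from 7 d to 28 d (1.78 ± 0.17, edgeR adjusted p = 3.08e-05). Against sham the 28 d value of 0.38 ± 0.16 did not pass (edgeR adjusted p = 0.0752). It passed under 5 of the alternatives, with values of 0.36 to 0.63, and was 0.24 without MI 28 d replicate 3 (edgeR adjusted p = 0.224) and 0.12 without the Adipoq-rich libraries (edgeR adjusted p = 0.459).

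Klf15, at chr6:90462576-90475238, encodes the cardiomyocyte factor that drives branched-chain amino acid breakdown and lipid use and restrains hypertrophy. It stood at 46.1, 44.9 and 47.8 CPM in sham, 8.61, 7.67 and 16.6 at 7 d, and 38.1, 32.7 and 40.4 at 28 d. The groups did not overlap, and the Adipoq-rich MI 7 d replicate 3 was the highest of its group. The fall at 7 d was 4.22-fold (-2.08 ± 0.25, edgeR adjusted p = 3.84e-05), the deepest among the 9 genes, and the rise from 7 d to 28 d was 3.38-fold (1.76 ± 0.25, edgeR adjusted p = 0.000266). At 28 d Klf15 remained below sham in every library, but the difference of -0.32 ± 0.24 did not pass (edgeR adjusted p = 0.272). It passed with only the 2 groups compared (-0.31, edgeR adjusted p = 0.0258) and without the 3 Adipoq-rich libraries, which leaves 1 library at 28 d (-0.51, edgeR adjusted p = 0.00321), and was -0.07 with library-size scaling alone.

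Cardiomyocyte markers fell and rose with both genes. At 7 d all 8 markers fell, with a median log2 fold change of -2.59 beside -1.40 for Klf9 and -2.08 for Klf15, and from 7 d to 28 d all 8 rose, with a median of 1.56. Per 1000 CPM of summed cardiomyocyte markers Klf9 was 1.16 ± 0.0134 in sham, 3.1 ± 1.03 at 7 d and 3.71 ± 1.61 at 28 d (SD, n = 3). For Klf15 the values were 0.532 ± 0.00868, 0.889 ± 0.453 and 1.04 ± 0.364. Each infarct group lay above sham without overlap (exact two-sided permutation p = 0.1, the smallest possible), and the infarct groups overlapped each other (exact p = 0.7 for Klf9 and 0.5 for Klf15). The marker sum itself fell after infarction, so any gene that fell less than the sum has a higher ratio, whatever its cell of origin. The ratio is therefore no measure of RNA per cardiomyocyte, and the part of cardiomyocyte content was not tested. The 7 d libraries for Klf15 were 0.575, 0.684 and 1.41, the last being the Adipoq-rich MI 7 d replicate 3. With the abundant marker Myh6 left out of the sum, Klf15 at 7 d overlapped sham (1.38 ± 0.723 against 1.06 ± 0.0362), and Klf9 did not (4.78 ± 1.59 against 2.3 ± 0.0473).

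All 8 genes listed as KLF15 targets fell at 7 d, with a median of -2.95, 7 of 8 fell at 28 d, with a median of -1.42, and 6 of 8 rose between the times. Kcnip2, the potassium channel subunit through which KLF15 shapes repolarisation, was 266, 268 and 272 CPM in sham, 11.9, 9.01 and 7.65 at 7 d, and 104, 49.7 and 41.4 at 28 d. It fell 28.2-fold at 7 d (-4.82) and was still 4.13-fold below sham at 28 d (-2.05), when Klf15 itself did not pass. Slc2a4, the insulin-regulated glucose transporter GLUT4, fell by 3.12 on the log2 scale at 7 d and by 1.42 at 28 d. Bcat2, the mitochondrial branched-chain aminotransferase, fell by 1.72 and by 1.01. The 7 d count was 7 of 8 with library-size scaling alone. The list holds cardiac and metabolic genes, and cardiomyocyte markers also fell, 8 of 8 at 7 d and 7 of 8 at 28 d. The part of cardiomyocyte content in these falls was not tested.

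Klf13, at chr7:63886351-63938915 on the minus strand, encodes a partner of the cardiac factors GATA4 and TBX5. It was 76.1, 83.7 and 77.9 CPM in sham, 108, 100 and 115 at 7 d, and 102, 111 and 112 at 28 d. All 6 infarct libraries were above all sham libraries and the infarct groups overlapped. The rises were small but tight, 1.36-fold at 7 d (0.44 ± 0.08, edgeR adjusted p = 0.000551) and 1.37-fold at 28 d (0.45 ± 0.08, edgeR adjusted p = 0.00112), and the 2 times differed by 0.01 ± 0.08 (edgeR adjusted p = 0.936).

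The glucocorticoid list, whose hormone induces Klf9, Klf13 and Klf15, turned between the times. At 7 d 3 of 11 genes rose and 7 fell, with a median of -0.69, at 28 d 5 rose and 2 fell, and from 7 d to 28 d 10 rose and none fell, with a median of 0.91. Nr3c1, the glucocorticoid receptor, fell by 0.42 at 7 d and was -0.05 at 28 d, which did not pass. Fkbp5, a receptor cochaperone, rose at both times (1.61 and 2.15). Tsc22d3, which encodes the anti-inflammatory protein GILZ, was 86.5, 85.8 and 84.5 CPM in sham, 48.3, 62.7 and 86.6 at 7 d, and 239, 224 and 238 at 28 d, and every 28 d library was far above the rest. Tsc22d3 rose against sham at 28 d (1.45), was -0.38 at 7 d, which did not pass, and rose 3.55-fold from 7 d to 28 d. With library-size scaling alone 3 of 11 rose and 6 fell at 7 d, and 8 rose and none fell between the times.

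Clock genes shifted strongly in the same libraries. Of 17 listed, 7 rose and 6 fell at 7 d, 11 rose and 5 fell at 28 d, and 14 rose and 2 fell between the times. Library-size scaling alone gave 9 higher and 6 lower at 7 d, 12 and 5 at 28 d, and 11 and 2 between the times. Arntl, which encodes BMAL1, was 53.2, 49.5 and 51.4 CPM in sham, 16.8, 12.9 and 13.7 at 7 d and 3.12, 4.09 and 3.07 at 28 d. Dbp, a clock output factor, ran the other way, at 8.11, 7.17 and 8.28, then 35.6, 41.1 and 44, then 86.1, 81.6 and 96.6 CPM. Nr1d1, the repressor REV-ERB-alpha, rose at 7 d (0.55) and at 28 d (0.97). Klf9 and Klf15 were lowest at 7 d, unlike these 3 genes. Other clock genes were also lowest at 7 d: Hlf fell then by 2.00 and rose 2.80 from 7 d to 28 d on the log2 scale, and Cry1 fell by 1.82 and rose 1.21. Both are named after their values were seen. Without a time of day in the labels, group and harvest time cannot be told apart for the clock genes or for the KLFs that cycle with them.

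**Figure D3:**
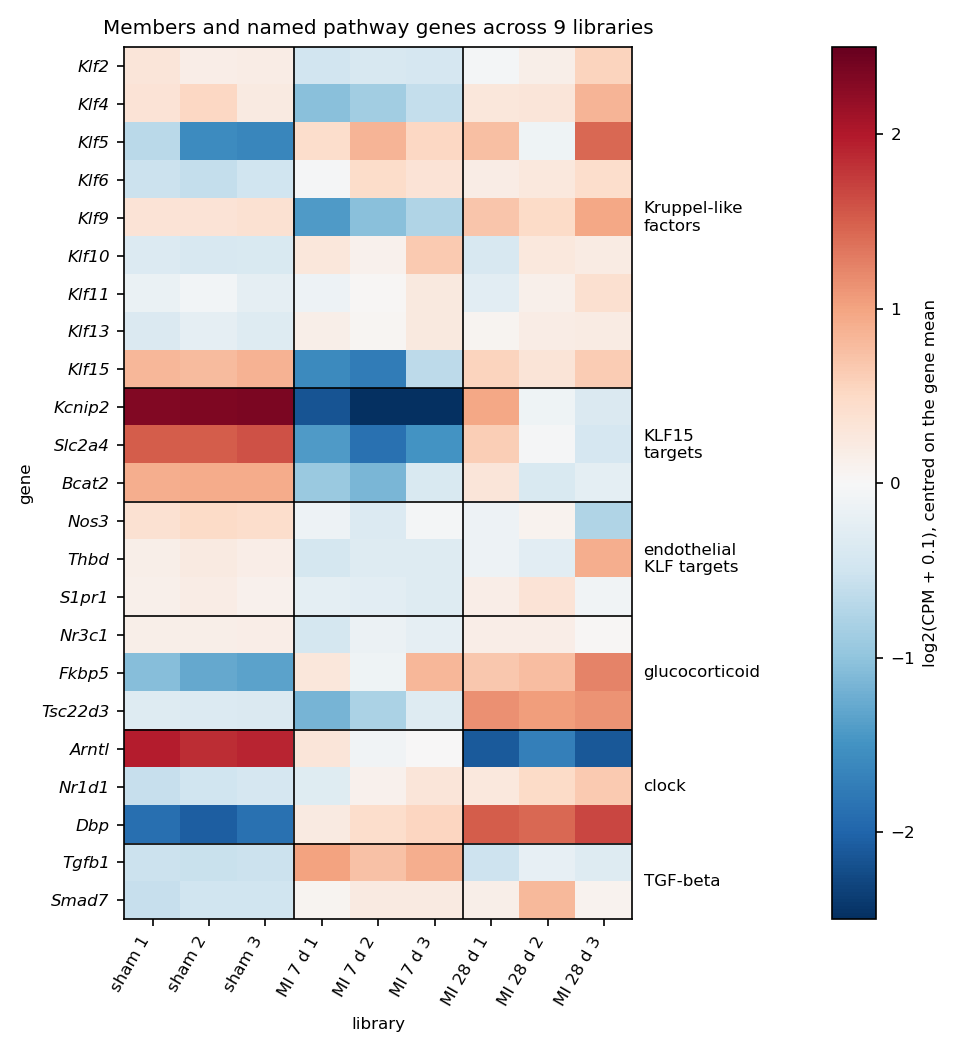
Log2 level (CPM plus 0.1) of the 9 Kruppel-like factors and of named pathway genes in each of the 9 libraries, centred on each gene's mean, with colours capped at 2.5 in either direction. Klf4, Klf9 and Klf15 are blue in the 3 MI 7 d columns, while Arntl falls and Dbp rises stepwise from sham to MI 28 d.

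Klf5, at chr14:99298691-99315036, is known in the heart from fibroblasts and smooth muscle, where injury induces it. It was close to the detection limit in sham, with 3, 1 and 1 reads (0.262, 0.092 and 0.0845 CPM), against 14, 19 and 15 reads at 7 d (0.674, 0.941 and 0.722 CPM) and 13, 7 and 25 at 28 d (0.863, 0.434 and 1.45 CPM). All infarct libraries were above all sham libraries. Klf5 rose by a fitted 2.35 ± 0.63 at 7 d (edgeR adjusted p = 0.00696) and 2.59 ± 0.63 at 28 d (edgeR adjusted p = 0.00663), and the infarct groups differed by 0.24 ± 0.44 (edgeR adjusted p = 0.67). The summed reads were 5 in sham, 48 at 7 d and 45 at 28 d, a depth-scaled ratio of 5.31 at 7 d (95% interval 2.12 to 17.1) and 6.35 at 28 d (2.53 to 20.5), where the intervals cover counting error only. Without sham replicate 1, which held 3 of the 5 sham reads, the log2 values were 3.04 and 3.27. With sham and MI 28 d compared alone, Klf5 did not pass the filter on low counts. The 28 d call was lost without the Adipoq-rich libraries (1.51, edgeR adjusted p = 0.182) and with the sham libraries summed to 1 (2.57, edgeR adjusted p = 0.0587).

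Klf5 is abundant in epithelia, and summed markers of epithelial and mesothelial cells were higher in the same libraries. Summed epithelial markers over 6 genes were 0.92 to 1.52 CPM in sham, 20.7 to 30.2 at 7 d, then 15.1 to 29.7 at 28 d. Most of this sum was Krt18, at a mean of 0.782, 20 and 17.9 CPM. The 4 epithelial markers with enough reads rose at both times. Epcam stayed near the floor, at 0.0282, 0.357 and 0.04 CPM. Krt18 and Epcam are named after their values were seen. Mesothelial markers over 5 genes were 7.24 to 8.79, 22.4 to 124 and 94.9 to 583 CPM. Their part in the rise of Klf5 was not tested. Of 8 smooth muscle and myofibroblast genes known to be under KLF4 or KLF5, 6 rose and 1 fell at both times, with medians of 1.63 and 0.79. Acta2, smooth muscle actin, rose 3.43-fold at 7 d and 1.57-fold at 28 d, and Tagln rose 10.1-fold and 3.28-fold. Pdgfa, a direct KLF5 target, rose 1.36-fold at 7 d and did not pass at 28 d (0.10). Smtn, the contractile gene smoothelin, was the member that fell (-0.45 and -0.41), and it is named after its values were seen. With library-size scaling alone 7 of the 8 rose at each time and none fell.

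Klf6, at chr13:5861482-5870394, is an early gene of tissue injury that is expressed in most cell types. It was 77.5, 74.9 and 79.6 CPM in sham, 110, 154 and 142 at 7 d, and 129, 135 and 152 at 28 d. Every infarct library exceeded every sham library, and the infarct groups overlapped. Klf6 rose 1.75-fold at 7 d (0.81 ± 0.12, edgeR adjusted p = 0.000207) and 1.8-fold at 28 d (0.85 ± 0.12, edgeR adjusted p = 0.000454), a difference between the times of 0.04 ± 0.12 (edgeR adjusted p = 0.802). This rise was small beside that of fibroblast and macrophage markers at 7 d, whose median log2 fold changes were 2.84 and 2.90. Per 1000 CPM of macrophage markers Klf6 was 153 ± 11.1 in sham, 32.2 ± 4.85 at 7 d and 148 ± 26.1 at 28 d (SD, n = 3), with sham and 28 d overlapping. Per 1000 CPM of fibroblast markers it was 40.1 ± 1.12, 4.16 ± 1.03 and 19.9 ± 5.23, with no overlap between groups.

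Klf10, at chr15:38291463-38300706 on the minus strand, encodes the TGF-beta-inducible repressor TIEG1. Its level was 25.2, 23.9 and 24.3 CPM in sham, 38.8, 34.4 and 50.3 at 7 d, and 24, 38.4 and 36.6 at 28 d. All 7 d libraries exceeded sham, while MI 28 d replicate 1 sat within the sham range and the other 28 d libraries above it. Klf10 rose 1.68-fold at 7 d (0.75 ± 0.19, edgeR adjusted p = 0.00468) and did not pass at 28 d (0.43 ± 0.19, edgeR adjusted p = 0.0767). The 28 d value passed without MI 28 d replicate 1 (0.61, edgeR adjusted p = 0.00755), without the Adipoq-rich libraries, of which it is one (0.64, edgeR adjusted p = 0.000901), and with all libraries under library-size scaling alone (0.69, edgeR adjusted p = 0.0181). With the sham libraries summed to 1 the 7 d call was lost (0.72, edgeR adjusted p = 0.0859).

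Klf11, at chr12:24651274-24662789, encodes TIEG2, a close relative that recruits the same SIN3A corepressor. It was 19, 20.5 and 18.4 CPM in sham, 19.7, 21.8 and 25.5 at 7 d, and 17.9, 23.4 and 28.4 at 28 d, with all 3 groups overlapping. Its changes of 0.21 ± 0.16 at 7 d and 0.27 ± 0.16 at 28 d did not pass (edgeR adjusted p = 0.265 and 0.191). Klf11 rose at both times with library-size scaling alone (0.55 and 0.53, edgeR adjusted p = 0.0254 and 0.0382), and at 28 d without MI 28 d replicate 1 (0.42, edgeR adjusted p = 0.0298).

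TGF-beta ligands, receptors and early response genes, the pathway that induces Klf10 and Klf11, were higher in the same libraries. All 11 listed genes rose at 7 d, with a median of 1.43, 10 of 11 rose at 28 d, with a median of 1.04, and 6 fell from 7 d to 28 d. Tgfb1, the ligand, rose 2.69-fold at 7 d and did not pass at 28 d (0.20), although it passed there with library-size scaling alone. Smad7, the inhibitory SMAD, rose 1.62-fold and 1.88-fold.

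**Figure D4:**
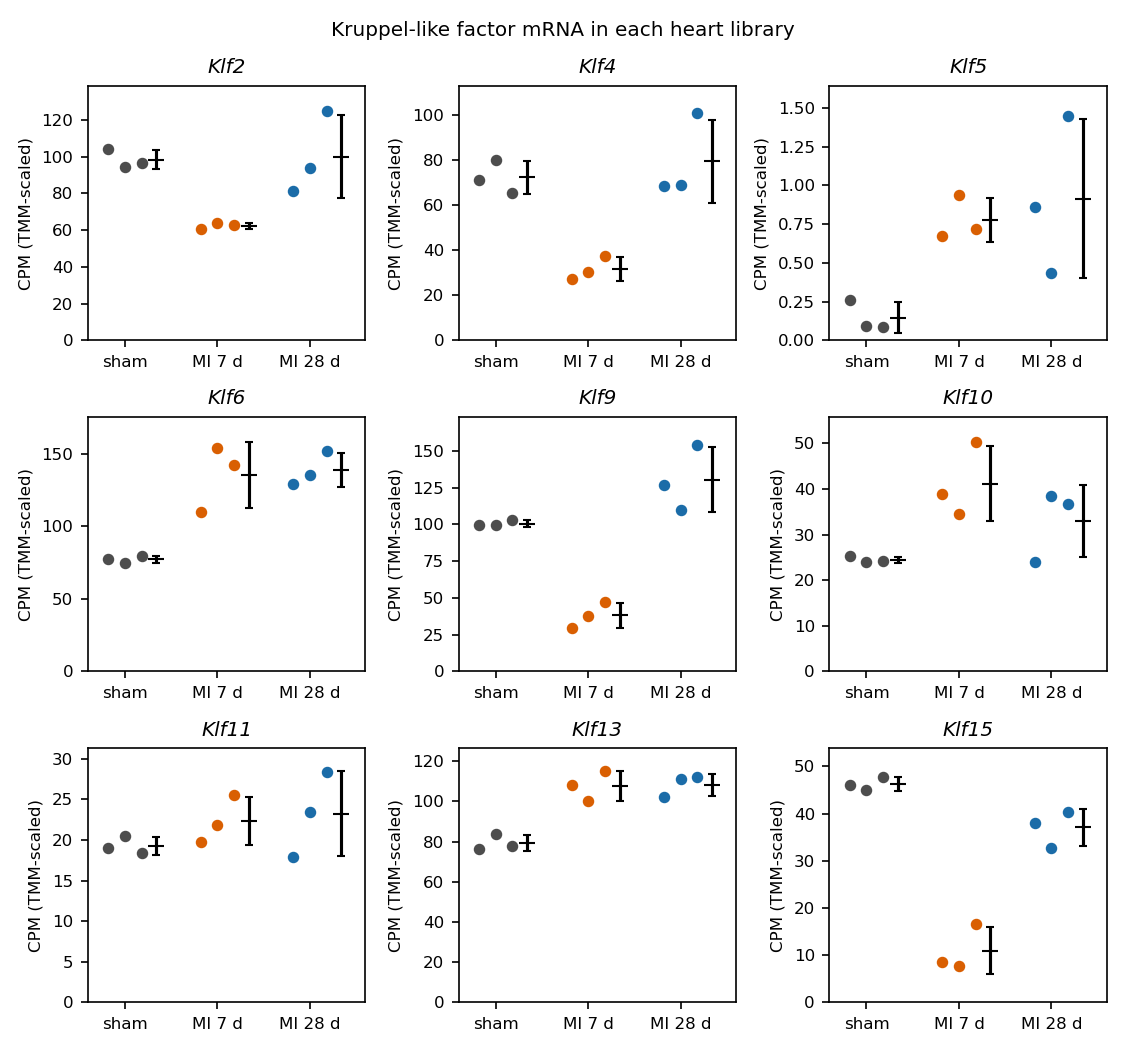
CPM of each Kruppel-like factor (y axes, linear and starting at 0) in the 3 sham, 3 MI 7 d and 3 MI 28 d libraries, with the mean ± SD of each group in black. Klf2, Klf4, Klf9 and Klf15 dip at 7 d, Klf5, Klf6 and Klf13 stay above sham at both times, and Klf11 overlaps throughout.

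Compared per kilobase of exon, Klf2 was the most abundant of the 9 genes in each group, at 53.4 ± 2.75 CPM per kilobase in sham, 33.8 ± 0.943 at 7 d and 54.2 ± 12.2 at 28 d, with the range of Klf6 overlapping it at 7 d. In sham the order was then Klf4 (23.8), Klf9 (20.9), Klf6 (17.6), Klf15 (16.6), Klf13 (10.5), Klf10 (5.86), Klf11 (4.45) and Klf5 (0.0281), and of these neighbours the ranges of Klf6 and Klf15 overlapped. At 7 d Klf6 (30.8) and Klf13 (14.3) stood above Klf4 (10.4), Klf10 (9.85) and Klf9 (7.9), followed by Klf11 (5.15), Klf15 (3.93) and Klf5 (0.15). Klf4 and Klf10 overlapped there, as did Klf10 and Klf9, and Klf11 and Klf15. Klf15 thus had rank 5 in sham and rank 8 at 7 d. At 28 d Klf6 (31.6), Klf9 (27.1) and Klf4 (26.2) overlapped as neighbours, followed by Klf13 (14.4) and Klf15 (13.3), which overlapped, then Klf10 (7.89) and Klf11 (5.35), which overlapped, and Klf5 (0.176). With the longest transcript as the length, Klf6 and Klf15 in sham and Klf4 and Klf10 at 7 d changed places.

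Spread within groups was uneven. The sham SD of log2 CPM was 0.027 for Klf9 and 0.046 for Klf15, below the median of 0.086 over all tested genes, while at 7 d it was 0.34 for Klf9 and 0.59 for Klf15, above the median of 0.15. MI 28 d replicate 3 was the highest library of its group for 8 of the 9 genes, all but Klf10. Klf13 had the lowest spread at 28 d, 0.073 against an all-gene median of 0.20.

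The other 5 KLF genes with enough reads also split. Klf8 and Klf16 rose at 7 d (log2 1.83 and 1.15) and at 28 d (0.82 and 0.76), and both fell from 7 d to 28 d (-1.01 and -0.39). Klf12 fell at both times (-1.77 and -0.73) and Klf7 fell at 7 d (-1.58) and did not pass at 28 d (-0.60), and both rose between the times (1.04 and 0.98). Klf3 passed in none of the comparisons (-0.31, -0.14 and 0.16). Klf12 was 22.3, 21.5 and 22.1 CPM in sham, 5.1, 7.82 and 6.4 at 7 d and 16.1, 12.6 and 11.2 at 28 d. It dipped at 7 d as Klf9 and Klf15 did, and every 28 d library was below sham, as for Klf15.

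Sp factors and KLF cofactors are given next. Of 4 tested Sp genes, 2 fell at each time against sham and none rose, with Sp2 at -0.32 and -0.31, while Sp1 (0.16 and -0.02) and Sp3 (0.15 and -0.04) did not pass. With library-size scaling alone 2 Sp genes rose and none fell at 7 d, and none passed at 28 d, and Sp2 was 0.02 at 7 d, so no direction held for this family. Of 10 cofactor genes, 1 rose and 5 fell at 7 d, among them the acetyltransferase genes Ep300 (-0.31) and Kat2b (-0.72), while the histone deacetylase gene Hdac1 was the 1 that rose (0.95), and the corepressor genes Sin3a (-0.13) and Ctbp2 (0.06) did not pass. Hdac1 and Kat2b are named after their values were seen. Library-size scaling alone gave 3 higher and 1 lower at 7 d, with Ep300 at 0.03, which did not pass. Of 4 ubiquitin ligase genes whose products target KLF proteins, 3 fell at 7 d and 2 at 28 d. Fbxw7 fell by 1.71 and by 1.27, Wwp1 by 0.39 and by 0.48, and Smurf1 did not pass (0.03 and 0.21). Under library-size scaling alone 1 fell and 1 rose at each time.

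Several KLF genes respond to acute stimuli within minutes to hours, so classical immediate early genes are given beside them. Of 13, 3 rose and 5 fell at 7 d, 3 rose and 6 fell at 28 d, and 7 rose and 2 fell between the times. Library-size scaling alone gave 4 higher and 5 lower at 7 d, and 7 higher and 5 lower at 28 d. Fos (-2.12 and -2.52) and Egr1 (-2.11 and -1.52) fell at both times and Atf3 did not pass (0.65 and 0.82). Egr1 was 177, 152 and 157 CPM in sham, 31.8, 41.6 and 39.2 at 7 d and 34.6, 89.4 and 45.2 at 28 d. Every infarct library was thus below every sham library, whereas Klf2 and Klf4 at 28 d overlapped sham.

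The genes nearest each member were those with the smallest root mean square difference in centred log2 CPM over the 9 libraries, among 12067 candidates. For Klf2 they were Sfxn4, Dnajb9 and Sh3bp4, at 0.099 to 0.10, and for Klf4 they were Abca8b, Aox1 and Cacna1g, at 0.16 to 0.17. Sik1, which encodes salt-inducible kinase 1, was nearest to Klf9 at 0.15, followed by Proser2 (0.23) and Hsph1 (0.24), and the nearest member to Klf9 was Klf4 (0.23). Klf15 was nearest to Tppp (0.18), Fam57b (0.19) and Habp2 (0.22). Rara, the retinoic acid receptor alpha gene, was nearest to Klf10 (0.08), ahead of H2-Q5 (0.13) and Fbxo4 (0.13). Evi5, Pdxk and Kif3c were nearest to Klf6 (0.08 to 0.10), Ints6l, Arl13b and Mapkbp1 to Klf11 (0.08 to 0.10), and Alg14, Cdk8 and Usp18 to Klf13 (0.05 to 0.07). The low-count Klf5 had looser neighbours in Met, Sox5 and Tmc4 (0.29 to 0.32). Genes that vary little give small differences by construction, so the values are not compared between members.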

How the data were processed

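Bulk RNA sequencing libraries of 9 mouse hearts were analysed. Per the labels' protocols, RNA was extracted with TRIzol and libraries of total RNA were made with the KAPA RNA HyperPrep kit. Per the submitters' processing notes, reads went through Trim Galore, STAR and featureCounts on mm10, without versions. Which annotation and strand setting were used, and how multi-mapping reads were treated, is not given in the sources used here, so reads could be split between similar genes. The values are whole-number counts per gene symbol deposited by the authors, not normalized.

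Groups and replicate numbers came from the sample titles. R 4.3.3 with edgeR 4.0.16 was used: filterByExpr by group (minimum count 10, minimum total 15) left 14347 genes, scaled by TMM, with 1 coefficient per group over all 9 libraries, the two-sided quasi-likelihood test and Benjamini-Hochberg adjustment over all tested genes (threshold 0.05). Each SE was obtained by dividing the size of the log2 fold change by the root of F. A prior count of 2 was added for log2 CPM in gene patterns. P-values rest on a spread between mice estimated over all 9 libraries together, with 3 mice per group, and not on each group's own spread. Chi-square per degree of freedom was 1.64 to 1.76 between sham libraries, 17.9 to 27.8 among MI 7 d and 29.7 to 67.4 among MI 28 d. The sham libraries were thus far closer to sampling noise than the others. They were kept as 3 replicates because the design gives 3 mice, and summing them to 1 was an alternative. The fit was tried on simulated data with 100 genes changed 2-fold and 100 changed 4-fold per comparison. It called 87% to 89% and 98% to 99% of them, with 4 to 12 false calls. The simulation had few changed genes and the same spread in every group, unlike these hearts. It therefore cannot vouch for the scaling or the shared spread here. Exon lengths and positions came from GENCODE M21 (GRCm38, the sequence of mm10), in place of the RefSeq exons planned, and promoter windows from RefSeq, which matched 7 of the 9 genes.

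The members, gene lists and tests were chosen with earlier results of these data known. Named genes were all members, the first 3 genes of each list as written, all other tested KLF genes, and the 3 genes nearest each member (mean of at least 1 log2 CPM, without Gm and Rik symbols). A gene named by this rule is not reported here. Lists are described by counts. Alternatives were DESeq2 1.42.0, scaling by library size alone or by DESeq2-type size factors, no filter or a stricter one, limma 3.58.1 voom with group weights, the replicate block, only the 2 groups compared, a 1.5-fold threshold, and leaving out single or Adipoq-rich libraries. Leaving out each marker of a marker sum was chosen after seeing the data. Protein sequences were not used here.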

Additional observations from a re-analysis of the deposited data

Results flagged for a closer look

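The changes from sham of 4 KLF genes differed between the infarct times by a direct test, edgeR's quasi-likelihood test of MI 28 d against MI 7 d. The 28 d change minus the 7 d change on the log2 scale was 0.68 for Klf2, 1.33 for Klf4, 1.78 for Klf9 and 1.76 for Klf15, with adjusted p of 0.00216, 0.000173, 3.08e-05 and 0.000266. These 4 genes were flagged because they passed this test, which 55.2% of all tested genes passed, 29.1% as higher. In each case all 3 libraries at 28 d were above all 3 at 7 d, as for 30.9% of all tested genes. The differences ranged from 0.49 to 0.80, 1.12 to 1.46, 1.62 to 1.96 and 1.55 to 2.18 when single libraries were left out.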

How the results depend on the processing

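Of 446 alternative values for 27 results of single KLF genes, 397 kept their direction and side of the threshold, 10 lost the call, 13 gained one and 26 changed sign, none of them called in either fit. At 7 d against sham 8 genes were called, and 5 with a required 1.5-fold change. At 28 d against sham 3 were called, 6 with library size alone, 1 with the sham libraries summed to 1, and 3 to 5 when single libraries were left out, with 5 without MI 28 d replicate 1. From 7 d to 28 d 4 were called, also with each library left out. The sign changes were in Klf2 and Klf4 at 28 d against sham, and in Klf5, Klf6, Klf10, Klf11 and Klf13 at 28 d against 7 d. Klf2 was -0.011 by DESeq2 and with its size factors, 0 by voom after rounding, -0.014 with sham summed to 1 and -0.079 without the Adipoq-rich libraries. Without those libraries Klf4 was -0.077, Klf5 -0.884 and Klf10 0.064. With library size alone Klf6 was -0.045, Klf11 -0.020 and Klf13 -0.077, and with only the 2 groups Klf6 was -0.005 and Klf13 -0.034. Klf13 was -0.010 with the stricter filter. Leaving out single libraries gave -0.169 to 0.143 for Klf2, -0.071 to 0.230 for Klf4, -0.267 to 0.577 for Klf5, -0.091 to 0.142 for Klf6, -0.110 to 0.207 for Klf11 and -0.043 to 0.055 for Klf13. The cause of these shifts was not tested. Same-numbered libraries of different groups had correlations of -0.091 to 0.304, so the numbers were not taken to pair the mice. With the replicate block 8, 4 and 4 genes were called, and Klf9 at 28 d passed (0.36, edgeR adjusted p = 0.0421). Klf9 at 28 d also passed with library size alone (0.63), with only the 2 groups compared (0.39), by voom (0.36) and without MI 28 d replicate 2 (0.49), and was 0.12 without the Adipoq-rich libraries. Klf13 at 28 d did not pass with sham summed to 1 (0.42, edgeR adjusted p = 0.0593). The stricter filter gave no value for Klf5, whose sham level rests on 5 reads. Sham and MI 28 d compared alone gave none either, with 8 members tested. Klf5 thus entered the 28 d test against sham only with the MI 7 d libraries in the filter. Leaving out the Adipoq-rich libraries leaves 1 library at 28 d, which is assumed to vary like the others.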
